A study of Homo sapiens with 12 samples.

Results

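Claudins and cadherins are the adhesion proteins at the core of the 2 main junctions between epithelial cells, and their transcripts were described here in RBE and HCCC9810 cells, 2 human lines derived from bile duct cancer of the liver (intrahepatic cholangiocarcinoma). The members were all protein-coding genes of the deposited table whose symbol is CLDN or CDH followed only by digits. They numbered 47 of 58216 genes, of which 24 were claudins and 23 were cadherins. Desmosomal cadherins and protocadherins carry other symbols and were not members. Each line was grown with 5 µM anlotinib, a multi-kinase inhibitor taken by mouth that blocks KIT, RET and the receptors of VEGF, PDGF and FGF, or without it as the control, and RNA was taken after 24 h. There were 3 biological replicates in each of the 4 groups (RBE with anlotinib, RBE control, HCCC9810 with anlotinib and HCCC9810 control), which made 12 libraries. The solvent of the drug was dimethyl sulfoxide, 0.1% in the medium per the labels, and the sources used here do not say whether control cells received it.

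Claudins span the membrane at tight junctions and seal the gap between neighbouring cells. Some form barriers, such as CLDN1 and CLDN4, and others form pores, such as CLDN2, which lets small cations and water pass. Classical cadherins hold cells together at adherens junctions by binding the same kind of cadherin on the next cell in the presence of calcium. Their link to actin includes beta-catenin, and they also bind p120-catenin. Bile duct cells use both systems to keep bile apart from the surrounding tissue. E-cadherin (CDH1) is the usual cadherin of epithelia, and N-cadherin (CDH2) is found with it in liver cells.

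The columns of the table were assigned to groups by the words control and treat in their headers. The numbers in the same headers did not match this: 0 of 12 occurred in a sample title of their own group, and all 12 occurred in titles of the same line's other treatment. The header number is used below to name a library. Every sign of an anlotinib effect rests on the header words and would turn round if the title numbers were followed. In the comparison of untreated lines the same change would put the treated libraries in place of the controls. The total counts were 18227987 to 40963529 in RBE anlotinib, 17779598 to 31956474 in RBE control, 15215193 to 17722970 in HCCC9810 anlotinib and 16240478 to 22567927 in HCCC9810 control libraries. RBE anlotinib library 6 and HCCC9810 control library 7 stood farthest from their groups, along an axis that held 41.7% of the variance within groups and followed the GC content of the genes (Spearman's rho 0.68 over 14923 genes, a description). Fold changes in HCCC9810 also followed GC content, with a rho of 0.35, against −0.04 in RBE. Bile duct markers were present in both lines: 7 of 7 listed genes passed 1 CPM (count per 1000000 reads of a library, after scaling) in RBE and 6 of 7 in HCCC9810. Listed leukocyte genes gave a summed level of 24.6 to 65.8 CPM in HCCC9810, nearly all of it from LYZ.

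The promoter sequences of 4 claudins are shown because these genes carried the changes described further on: CLDN4, CLDN2 and CLDN1 made up most claudin transcript, and CLDN7 differed between the lines in its response. Each is the 250 bases before an annotated start in RefSeq (GRCh38.p14), read 5′ to 3′ on the gene's strand. Capitals mark matches on either strand to TGANTCA, the site of AP-1, and to CAGGTG or its reverse complement CACCTG, the E-box bound by SNAI1, SNAI2 and ZEB1. The windows are chr7:73830746-73830995 on the plus strand for CLDN4, chrX:106899914-106900163 on the plus strand for CLDN2, chr3:190322447-190322696 on the minus strand for CLDN1 and chr17:7262479-7262728 on the minus strand for CLDN7.
CLDN4: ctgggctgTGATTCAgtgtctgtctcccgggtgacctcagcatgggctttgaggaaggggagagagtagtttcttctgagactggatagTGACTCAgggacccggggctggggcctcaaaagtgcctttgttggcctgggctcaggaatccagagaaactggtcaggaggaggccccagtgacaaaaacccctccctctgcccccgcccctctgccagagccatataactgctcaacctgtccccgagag
CLDN2: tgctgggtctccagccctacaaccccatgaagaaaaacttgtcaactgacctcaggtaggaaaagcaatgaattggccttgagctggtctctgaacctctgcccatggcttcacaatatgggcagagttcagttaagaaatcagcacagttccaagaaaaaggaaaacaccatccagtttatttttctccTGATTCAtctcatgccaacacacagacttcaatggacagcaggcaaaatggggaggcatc
CLDN1: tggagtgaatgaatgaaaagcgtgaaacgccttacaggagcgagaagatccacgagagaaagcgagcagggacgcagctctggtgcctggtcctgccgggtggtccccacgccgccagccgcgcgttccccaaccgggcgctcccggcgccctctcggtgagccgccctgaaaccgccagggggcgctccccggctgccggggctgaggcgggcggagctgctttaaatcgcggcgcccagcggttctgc
CLDN7: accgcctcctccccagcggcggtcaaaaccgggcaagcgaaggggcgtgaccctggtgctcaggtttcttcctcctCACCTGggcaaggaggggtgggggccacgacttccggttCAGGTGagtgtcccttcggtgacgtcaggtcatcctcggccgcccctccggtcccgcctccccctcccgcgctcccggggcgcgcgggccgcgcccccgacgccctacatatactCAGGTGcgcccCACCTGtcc
The CLDN4 window held 2 AP-1 matches and the CLDN2 window 1, the CLDN7 window held 4 E-box matches, and the CLDN1 window held neither motif. Of these AP-1 matches, TGACTCA in CLDN4 has C at N, while TGATTCA in CLDN4 and in CLDN2 has T. Among all 35116 promoter windows of this length, 6.57% held the AP-1 motif and 17.5% the E-box. Windows were found for 31 members at 50 starts, of which 7 held the AP-1 motif and 6 the E-box. The other annotated starts of CLDN2 and CLDN7 held neither. Of the other motifs searched, the GRHL site AACCGGTT was in 0 member windows (0.117% of all), the TATA box TATAAA in 3 (10.7% of all) and the GC box GGGCGG in 15 (42.6% of all), among them the printed windows of CLDN1, CLDN4 and CLDN7. Both strands were searched. A match is a description of letters only.

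Per length of gene, N-cadherin led the cadherins of both untreated lines, while E-cadherin, CDH6 and CDH11 took unlike shares in the 2 lines. Levels of different genes were compared here as RPKM, reads per kilobase of gene length and library size. The gene lengths behind these values were 4951 bases for CDH2, 12383 for CDH6, 13384 for CDH11 and 4703 for CLDN4. They need not be transcript lengths, and shares without division by length are given at the end. CDH2 averaged 49.4 ± 0.19 RPKM in RBE control and 51.9 ± 1.4 RPKM in HCCC9810 control libraries (SD, n = 3 each). It took 49.7% of all cadherin RPKM in RBE control and 62.5% in HCCC9810 control. CDH1 took 14.1% in RBE control and 0.04% in HCCC9810 control. CDH6, a kidney-type cadherin also made by bile duct tumours, took 17.5% in RBE control and 1.46% in HCCC9810 control. CDH11, the cadherin of mesenchymal cells and bone-forming cells, took under 0.01% in RBE control and 20.7% in HCCC9810 control. CDH24, a relative of CDH11, took 9.89% in RBE control and 13.7% in HCCC9810 control. The claudins were led by CLDN2 in RBE control, with 51.7% of claudin RPKM against 33.5% in HCCC9810 control, while CLDN4 took 14.99% in RBE control against 35.7% in HCCC9810 control. In HCCC9810 control the RPKM of CLDN4 (72.5 ± 10.0) and CLDN2 (67.7 ± 4.5) had overlapping spreads (SD, n = 3). CLDN1 held 24.0% in RBE control and 22.1% in HCCC9810 control.

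**Figure D1:**
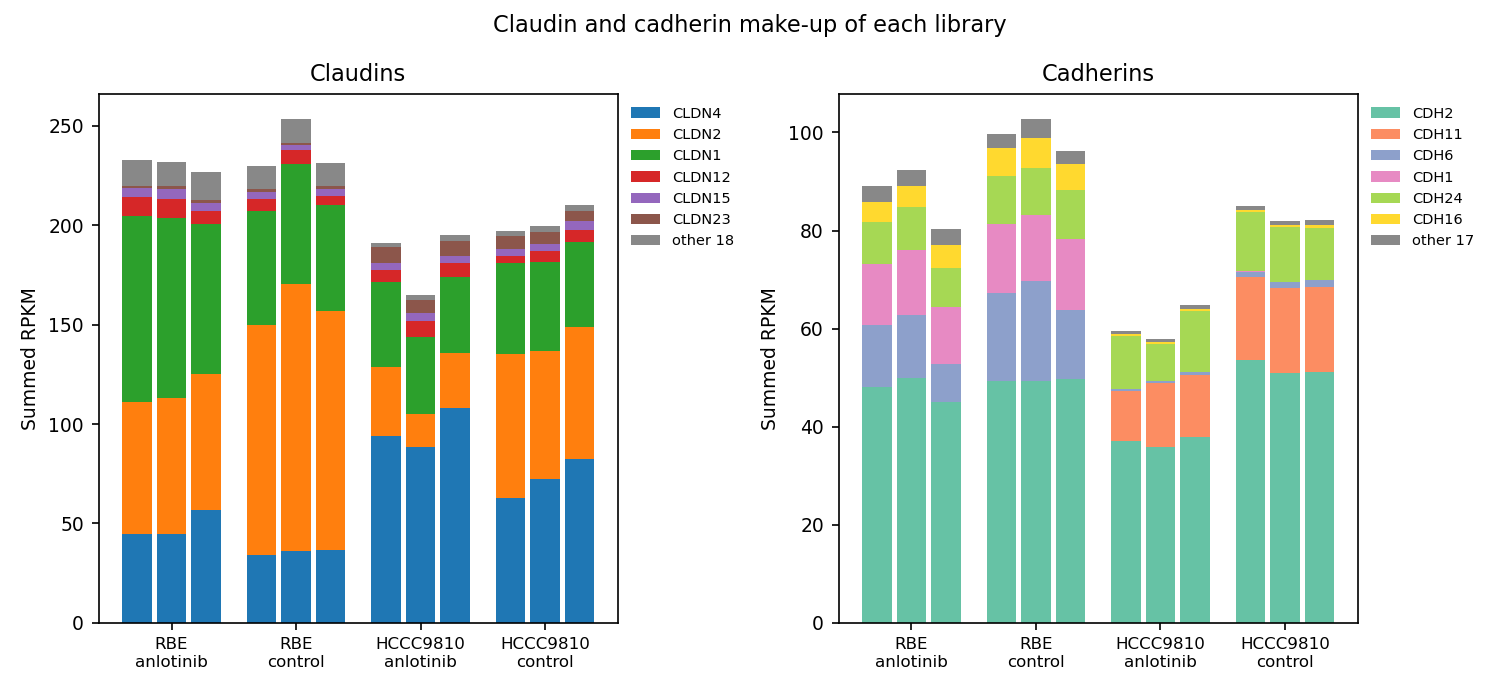
Summed RPKM of claudins (left) and cadherins (right) in each of the 12 libraries, with each bar split by gene and the 3 replicates of a group side by side. CDH11 (orange) was seen in HCCC9810 and CDH1 (pink) in RBE, and the CLDN2 part was smaller in the anlotinib libraries of both lines.

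Between the untreated lines, 16 of 25 tested members (64.0%) passed the threshold, beside 64.1% of all 18035 genes tested, so the share of members that differed was close to the background. The threshold throughout was an adjusted p below 0.05 in the quasi-likelihood test of edgeR, adjusted over all genes tested by the Benjamini-Hochberg method. Of the 16 members, 11 were higher and 5 were lower in RBE, beside 31.5% and 32.6% of all genes. The groups did not overlap for 21 of 25 members, beside 69.1% of all genes. The median log2 difference of the 25 members was 0.23, and that of all genes was −0.01.

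Among the classical cadherins, CDH1 and CDH11 were near reverse images. CDH1 had 83.5, 79.7 and 86.7 CPM in RBE control libraries, against 0.403, 0.0530 and 0.224 CPM in HCCC9810 control libraries. The HCCC9810 values stand for 1 to 6 reads in a library. CDH1 was 8.56 ± 0.26 higher in RBE on the log2 scale (SE, edgeR adjusted p = 9.1e-13). CDH11 had 0.0717, 0.0539 and 0.0611 CPM in RBE control libraries, which is 1 or 2 reads each, against 249, 234 and 233 CPM in HCCC9810 control libraries. It was lower in RBE by a log2 difference of −11.76 ± 0.36 (edgeR adjusted p = 2.0e-12). CDH2 had 234, 234 and 240.0 CPM in RBE control libraries, against 289, 254 and 256 CPM in HCCC9810 control libraries. The CDH2 groups did not overlap, but the difference of −0.17 ± 0.09 did not pass the test (edgeR adjusted p = 0.11). CDH3, the P-cadherin of basal epithelia, averaged 0.836 CPM in RBE control and 1.31 CPM in HCCC9810 control and did not pass either. The CDH3 gene lies 14.6 kb from CDH1 on chromosome 16.

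The kidney, intestinal and endothelial cadherins differed as well. CDH6 had 213, 241 and 172 CPM in RBE control libraries, against 13.8, 15.8 and 16.8 CPM in HCCC9810 control libraries, a log2 difference of 3.75 ± 0.19. CDH16, the kidney-specific cadherin of tubule cells, had 19.6, 21.6 and 19.2 CPM in RBE control against 1.55, 1.80 and 2.24 CPM in HCCC9810 control, a log2 difference of 3.41 ± 0.20. CDH17, the liver-intestine cadherin, had 8.10, 11.3 and 6.97 CPM in RBE control against 0.134, 0.106 and 0.0894 CPM in HCCC9810 control. All 3 were well apart between the lines, with no overlap. CDH12, a brain cadherin, was also higher in RBE (log2 difference 2.59 ± 0.43), at 1.34 to 1.73 CPM in RBE control and 0 to 0.358 CPM in HCCC9810 control. CDH5, the VE-cadherin of blood vessel lining, was lower in RBE (log2 difference −3.39 ± 0.44), at 0.0611 to 0.215 CPM in RBE control and 1.06 to 1.65 CPM in HCCC9810 control. The 6 listed endothelial genes, CDH5 among them, summed to 4.19 to 5.61 CPM in RBE control and to 30.7 to 36.3 CPM in HCCC9810 control, nearly all of it PECAM1. Their part in the CDH5 result was not tested.

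**Figure D2:**
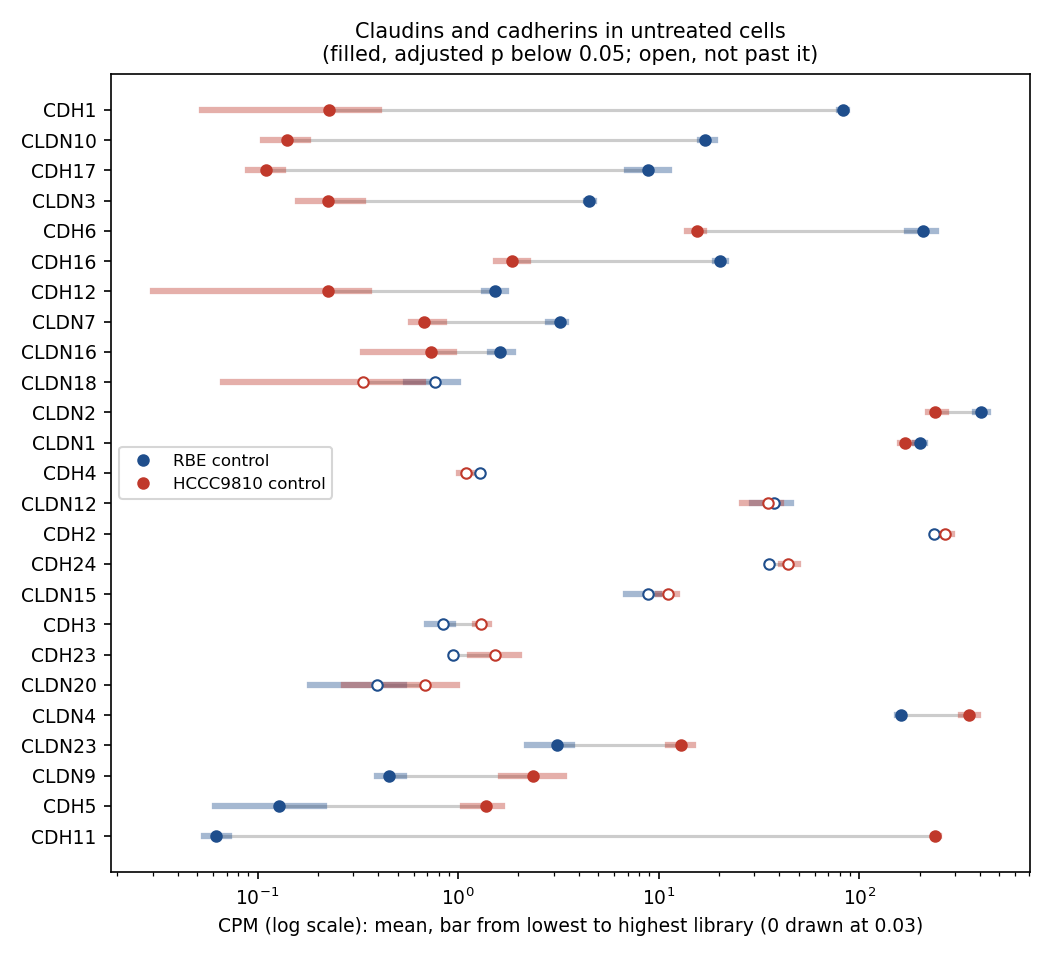
Mean CPM of the 25 tested members in untreated RBE and HCCC9810 cells on a log axis, ordered by the log2 difference (RBE over HCCC9810). Bars run from the lowest to the highest of the 3 libraries, and filled points passed the test. CDH1 at the top and CDH11 at the bottom were the widest pairs.

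The claudins split by gene in the same comparison. CLDN10, which forms cation or anion pores depending on its splice form, had 16.1, 19.0 and 16.2 CPM in RBE control libraries and 0.134, 0.106 and 0.179 CPM in HCCC9810 control libraries. Its log2 difference was 6.85 ± 0.28, and 46.1% of its exon bases are shared with DZIP1, whose reads could not be told apart here because the strand setting of the counting was not given. CLDN3, a barrier claudin, had 4.34, 4.37 and 4.77 CPM in RBE control against 0.336, 0.159 and 0.179 CPM in HCCC9810 control (log2 difference 4.35 ± 0.32). CLDN4 went the other way, with 155, 163 and 168 CPM in RBE control against 321, 342 and 391 CPM in HCCC9810 control (log2 difference −1.12 ± 0.14). CLDN3 and CLDN4 are neighbours on chromosome 7, with 29.3 kb between them. CLDN7, found at the basolateral side of many epithelia, was higher in RBE by a log2 difference of 2.25 ± 0.27, CLDN2 by 0.76 ± 0.20 and CLDN16, a claudin of magnesium transport in the kidney, by 1.08 ± 0.29. CLDN23 (−2.03 ± 0.18) and CLDN9 (−2.37 ± 0.34), an inner-ear claudin, were lower in RBE. CLDN23 averaged 3.10 CPM in RBE control and 13.0 CPM in HCCC9810 control. CLDN1 was higher in RBE by 0.25 ± 0.10 (edgeR adjusted p = 0.037), but this call ended without HCCC9810 control library 8 (0.10) or 9 (0.13), without RBE control library 1 (0.086) and after a correction for GC content (0.070). CLDN12, CLDN15, CLDN18, CLDN20, CDH4, CDH23 and CDH24 did not pass the test, and their group means ranged from 0.334 CPM for CLDN18 in HCCC9810 control to 44.2 CPM for CDH24 in HCCC9810 control.

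With anlotinib, 6 of 25 members (24.0%) passed the test in RBE, beside 17.7% of all genes, and 7 of 25 (28.0%) passed in HCCC9810, beside 23.9% of all genes. In RBE 4 members rose and 2 fell, where 9.37% and 8.32% of all genes did so. In HCCC9810 1 member rose and 6 fell, where 11.1% and 12.8% of all genes did so. The groups did not overlap for 15 members in RBE and 10 in HCCC9810, beside 35.0% and 38.3% of all genes. The median log2 fold change of the members was 0.00 in RBE (0.02 for all genes) and −0.27 in HCCC9810 (−0.05 for all genes). In HCCC9810, 4 of the 7 bile duct markers fell too, and their summed level was 7058 to 7864 CPM in anlotinib libraries against 11525 to 16318 CPM in control libraries. In RBE the sum was 6222 to 7996 CPM in anlotinib libraries against 5755 to 6482 CPM in control libraries. The part of this in the member results was not tested. The anlotinib comparison in RBE, the difference of effects and the comparison of untreated lines share control libraries, and the same holds for HCCC9810.

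CLDN2 fell in both lines, and no other claudin did so. It had 204, 208 and 230.3 CPM in RBE anlotinib libraries, against 377, 439 and 401 CPM in RBE control libraries. The log2 fold change was −0.92 ± 0.20 (edgeR adjusted p = 0.0051), which is 1.89-fold lower. In HCCC9810 it had 128, 61.1 and 105 CPM in anlotinib libraries, against 271, 220.3 and 228 CPM in control libraries. The groups were well apart, library 11 being the lowest of the anlotinib group, and the log2 fold change was −1.29 ± 0.20 (edgeR adjusted p = 0.00059), or 2.45-fold lower. Both calls held in every alternative run. The difference between these effects, 0.37 ± 0.28, did not pass the test (edgeR adjusted p = 0.37). CLDN2 took 29.3% ± 0.83 of claudin RPKM in RBE anlotinib against 51.7% in RBE control, and 14.2% in HCCC9810 anlotinib against 33.5% in HCCC9810 control.

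CLDN4 rose in HCCC9810, where it and CLDN2 were the most abundant claudins of untreated cells. It had 475, 439 and 570.1 CPM in HCCC9810 anlotinib libraries, against 321, 342 and 391 CPM in HCCC9810 control libraries, with no overlap. The log2 fold change was 0.49 ± 0.14 (edgeR adjusted p = 0.020). This call ended without anlotinib library 12 (0.095), control library 7 (0.053) or control library 8 (0.073). It was also lost in 1 of 11 other settings, limma on log2(RPKM + 1) without the filter. In RBE it had 190.0, 189 and 263 CPM in anlotinib libraries against 155, 163 and 168 CPM in control libraries, and the fold change of 0.40 ± 0.14 did not pass (edgeR adjusted p = 0.061). The difference of effects was −0.09 ± 0.20 (edgeR adjusted p = 0.79). CLDN4 took 21.2% of claudin RPKM in RBE anlotinib against 14.99% in RBE control, and 52.6% in HCCC9810 anlotinib against 35.7% in HCCC9810 control.

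CLDN1 rose in RBE, together with 2 minor claudins. It had 311, 299 and 274 CPM in RBE anlotinib libraries, against 202, 213 and 190.1 CPM in RBE control libraries, and the lowest treated library was above the highest control. The log2 fold change was 0.55 ± 0.10 (edgeR adjusted p = 0.0013). In HCCC9810 it had 169.9, 151 and 157 CPM in anlotinib libraries against 183, 165 and 159.6 CPM in control libraries, which overlapped (−0.09 ± 0.10, edgeR adjusted p = 0.53). The effect in RBE was above that in HCCC9810 by 0.64 ± 0.14 (edgeR adjusted p = 0.0077). CLDN16 rose in RBE to 3.76, 2.87 and 3.58 CPM in anlotinib libraries, against 1.54, 1.89 and 1.44 CPM in control libraries (1.08 ± 0.23, edgeR adjusted p = 0.0048). In the GENCODE gene bounds CLDN16 lies on the opposite strand with 65 bases between it and CLDN1 on chromosome 3, while the RefSeq starts of CLDN16 lie outside the printed CLDN1 window. CLDN9 rose in RBE to 1.36, 1.16 and 1.79 CPM in anlotinib libraries, against 0.394, 0.539 and 0.428 CPM in control libraries (1.63 ± 0.35, edgeR adjusted p = 0.0039). Its RBE control libraries held 11, 10 and 14 reads, and the call was lost in 1 of 11 other settings. CLDN9 and CLDN16 averaged 3.32 and 0.886 CPM in HCCC9810 anlotinib, against 2.37 and 0.728 CPM in HCCC9810 control, and did not pass there. Their differences of effects, 1.13 ± 0.45 and 0.84 ± 0.42, did not pass either (edgeR adjusted p = 0.092 and 0.17).

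A pair of low claudins fell in HCCC9810. CLDN7 had 0.0708, 0.0597 and 0.284 CPM in HCCC9810 anlotinib libraries, which are 1, 1 and 4 reads, against 0.605, 0.849 and 0.581 CPM, or 9, 16 and 13 reads, in HCCC9810 control libraries. The groups did not overlap, and the log2 fold change was −2.30 ± 0.51 (edgeR adjusted p = 0.0047), a call lost in 1 of 11 other settings. In RBE it averaged 3.73 CPM in anlotinib libraries and 3.23 CPM in control libraries (0.18 ± 0.21, edgeR adjusted p = 0.61). CLDN7 shares 12.3% of its exon bases with ELP5 and another gene. CLDN10 had 0 reads in the 3 HCCC9810 anlotinib libraries, against 8 reads in the 3 HCCC9810 control libraries. It was 2.25-fold lower, scaled for depth, if 3 reads are put in place of the 0. No error was put on the 8 reads, so this is no bound for CLDN10. It passed the test there (edgeR adjusted p = 0.018), but not without anlotinib library 11 (0.051) or control library 9 (0.060), nor in 4 of 11 other settings: the fit of the 6 libraries compared (0.070), the GC and length correction (0.077) and limma on log2(RPKM + 1) with the filter (0.70) or without it (0.85). In RBE it averaged 12.7 CPM in anlotinib libraries and 17.1 CPM in control libraries (−0.43 ± 0.16, edgeR adjusted p = 0.080).

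The other claudins tested did not pass in either line. CLDN12, which lacks the usual scaffold-binding tail, came closest, at 51.9 ± 8.2 CPM in RBE anlotinib against 37.6 ± 8.2 in RBE control, and 51.5 ± 7.5 CPM in HCCC9810 anlotinib against 35.1 ± 8.1 in HCCC9810 control (SD, n = 3 each). Its edgeR adjusted p was 0.12 in RBE and 0.057 in HCCC9810, where the call passed in 9 alternatives, DESeq2 among them (0.022). CLDN23 averaged 17.8 CPM in HCCC9810 anlotinib and 13.0 CPM in HCCC9810 control (edgeR adjusted p = 0.061). CLDN15, a pore claudin of the intestine, averaged 11.98 CPM in RBE anlotinib and 8.89 CPM in RBE control (edgeR adjusted p = 0.062). CLDN3 averaged 5.02 CPM in RBE anlotinib and 4.49 CPM in RBE control. CLDN18 and CLDN20 had at most 1.07 CPM in any library.

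**Figure D3:**
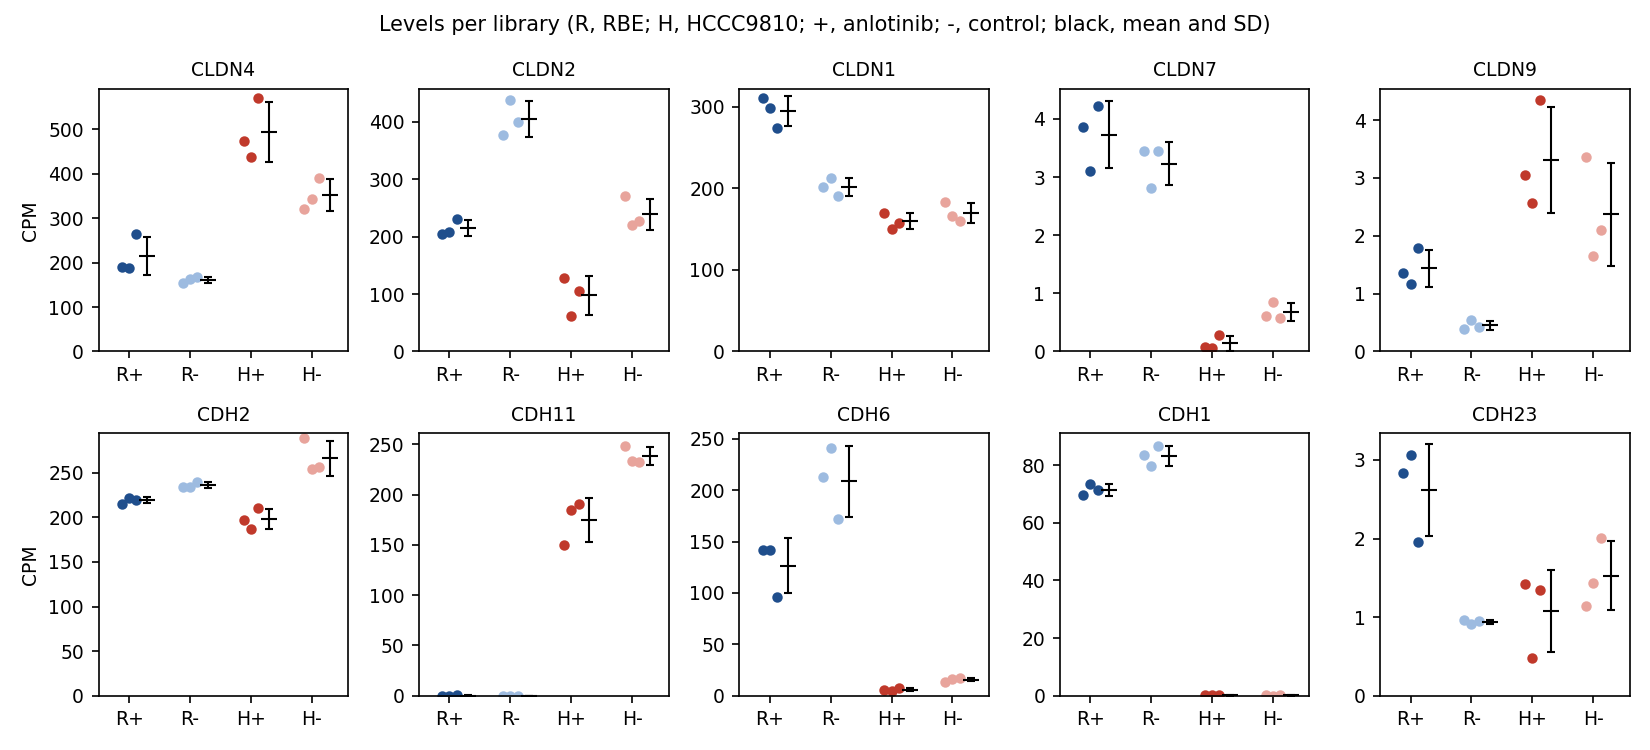
CPM of 5 claudins (top) and 5 cadherins (bottom) in every library, with the mean and SD of each group in black. CLDN2 and CDH6 were lower in the anlotinib libraries of both lines, and CLDN1 was higher with anlotinib in RBE.

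Among the cadherins, CDH6 fell in both lines. It had 142, 142 and 96.0 CPM in RBE anlotinib libraries, against 213, 241 and 172 CPM in RBE control libraries. The groups did not overlap, and library 6 was the lowest. The log2 fold change in RBE was −0.72 ± 0.17 (edgeR adjusted p = 0.0089). In HCCC9810 it had 5.24, 4.95 and 7.47 CPM in anlotinib libraries, against 13.8, 15.8 and 16.8 CPM in control libraries, a log2 fold change of −1.40 ± 0.20 (edgeR adjusted p = 0.00027). The difference of effects, 0.68 ± 0.26, did not pass (edgeR adjusted p = 0.088). CDH6 took 12.6% of cadherin RPKM in RBE anlotinib against 17.5% in RBE control, and 0.72% in HCCC9810 anlotinib against 1.46% in HCCC9810 control.

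CDH2 fell in HCCC9810, to 197, 187 and 210.4 CPM in anlotinib libraries, against 289, 254 and 256 CPM in control libraries. The log2 fold change was −0.43 ± 0.09 (edgeR adjusted p = 0.0044), or 1.34-fold lower. In RBE it had 215, 222 and 220.0 CPM in anlotinib libraries against 234, 234 and 240.0 CPM in control libraries. These groups did not overlap, yet the change of −0.11 ± 0.09 did not pass (edgeR adjusted p = 0.47), nor did the difference of effects (0.32 ± 0.13, edgeR adjusted p = 0.10). CDH11 in HCCC9810 had 149.5, 185 and 190.3 CPM in anlotinib libraries against 249, 234 and 233 CPM in control libraries. Its change of −0.45 ± 0.18 did not pass in the 12-library fit (edgeR adjusted p = 0.087) and passed in 8 alternatives, DESeq2 among them (0.021) and the fit without RBE anlotinib library 6 (0.0055). That library held 4 CDH11 reads, and the other RBE anlotinib libraries held 0. Of 8 listed fibroblast genes, all tested, 3 (COL1A1, COL3A1 and LUM) fell in HCCC9810, and the 8 summed to 35.0 to 49.6 CPM in anlotinib libraries against 70.8 to 86.3 CPM in control libraries. In RBE the sum was 60.8 to 65.3 CPM in anlotinib libraries against 62.0 to 77.5 CPM in control libraries. Between untreated lines LUM averaged 0.0239 CPM in RBE control and 34.5 CPM in HCCC9810 control, and PDGFRA was on the other side, with 32.9 to 45.1 CPM in RBE control and 0 to 0.202 CPM in HCCC9810 control. The part of this in the CDH11 values was not tested. The summed RPKM of all cadherins was 87.3 ± 6.2 in RBE anlotinib against 99.6 ± 3.3 in RBE control, and 60.7 ± 3.6 in HCCC9810 anlotinib against 83.1 ± 1.6 in HCCC9810 control (SD, n = 3 each). Summed claudin RPKM was 230.3 ± 3.2 in RBE anlotinib against 238 ± 13.3 in RBE control, and 184 ± 16.4 in HCCC9810 anlotinib against 202 ± 7.0 in HCCC9810 control.

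CDH1 did not pass the test in either line. In RBE it had 69.6, 73.6 and 71.4 CPM in anlotinib libraries, against 83.5, 79.7 and 86.7 CPM in control libraries, which did not overlap (−0.22 ± 0.15, edgeR adjusted p = 0.35). In HCCC9810 it had 8 reads over the 3 anlotinib libraries and 12 reads over the 3 control libraries. Its share of the RPKM of CDH1, CDH2, CDH3, CDH6 and CDH17 together was 16.9% in RBE anlotinib against 16.8% in RBE control, and 0.07% in HCCC9810 anlotinib against 0.06% in HCCC9810 control.

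Of the remaining cadherins, CDH23 rose in RBE and CDH5 fell in HCCC9810. CDH23, part of the tip links of sensory hair cells, had 2.84, 3.06 and 1.95 CPM in RBE anlotinib libraries, against 0.968, 0.917 and 0.947 CPM in RBE control libraries (1.49 ± 0.30, edgeR adjusted p = 0.0029). It shares 18.9% of its exon bases with C10orf105. In HCCC9810 it had 1.42, 0.477 and 1.35 CPM in anlotinib libraries against 1.14, 1.43 and 2.01 CPM in control libraries, which overlapped. CDH5 had 0.354, 0.298 and 0.427 CPM in HCCC9810 anlotinib libraries, or 5, 5 and 6 reads, against 1.41, 1.06 and 1.65 CPM, or 21, 20 and 37 reads, in HCCC9810 control libraries (−1.94 ± 0.41, edgeR adjusted p = 0.0034). Another of the 4 endothelial genes tested, TEK, fell with it, while the sum of the 6 listed, mostly PECAM1, was at 31.1 to 36.9 CPM in HCCC9810 anlotinib and 30.7 to 36.3 CPM in HCCC9810 control. CDH16 averaged 14.7 CPM in RBE anlotinib and 20.1 CPM in RBE control (−0.45 ± 0.17, edgeR adjusted p = 0.074). CDH17 averaged 8.78 CPM in RBE anlotinib and 8.80 CPM in RBE control. CDH3, CDH4, CDH12 and CDH24 did not pass in either line.

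**Figure D4:**
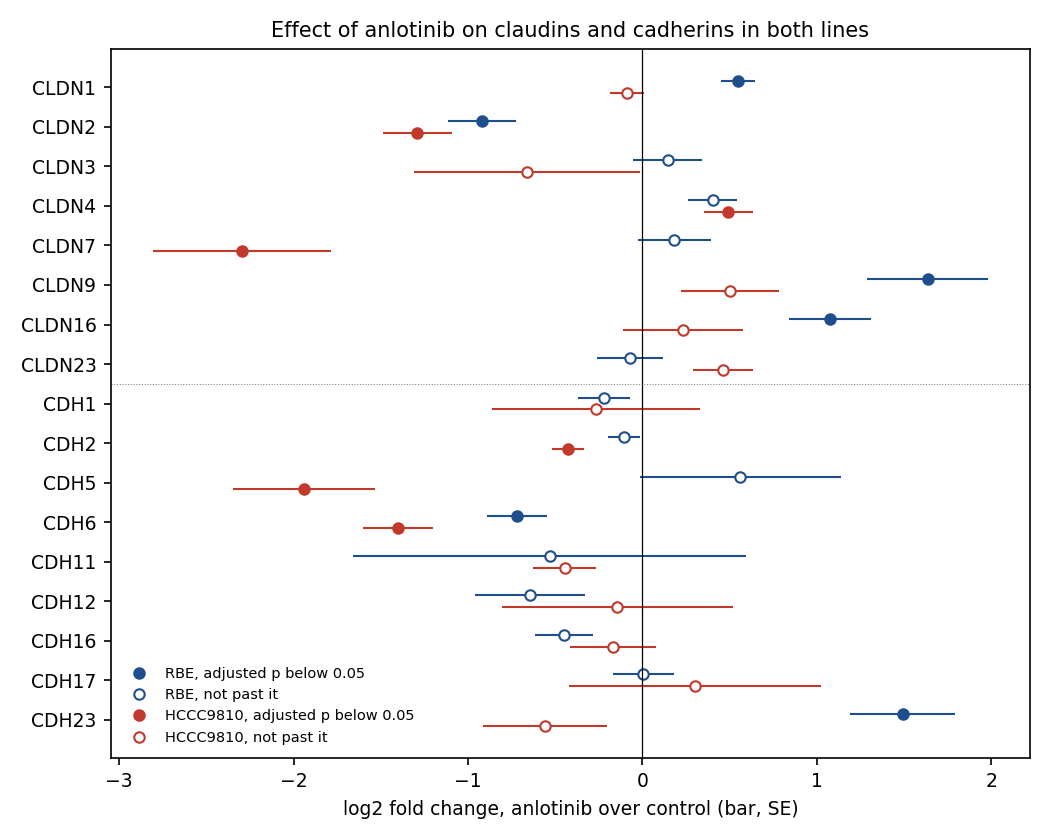
Log2 fold change with anlotinib for 17 members in RBE (blue) and HCCC9810 (red), with SE bars and filled points where the adjusted p was below 0.05. CLDN10 is left out because it had no reads in treated HCCC9810 cells. CLDN2 and CDH6 were lower in both lines.

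The effects of anlotinib differed between the lines for 5 of 25 members, beside 16.6% of all genes. All 5 (CLDN1, CLDN7, CLDN10, CDH5 and CDH23) had the higher fold change in RBE, where 8.92% of all genes were higher and 7.66% lower. The CLDN10 call was lost in 10 of 12 fits with 1 library left out and in 4 of 10 other settings, and its sign turned in 2 more (limma on log2(RPKM + 1), with and without the filter). No member was called in the other direction in edgeR or DESeq2, and 0 had an unadjusted p below 0.05 there against 10 on the RBE side. The share of all genes at that unadjusted cutoff was not computed, so these counts have no background beside them. No member was called in the other direction in any of the 23 fits of this comparison, but these fits share libraries and are not independent. CLDN7, CLDN10 and CDH5 had at most 6 reads in any treated HCCC9810 library. Over all genes the split of calls moved with the scaling, at 1608 higher and 1382 lower with TMM, 2080 and 1085 with library totals, and 1977 and 2769 after a correction for GC content and length. The median log2 difference was 0.44 for the members and 0.09 for all genes.

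The remaining 22 members, 11 claudins and 11 cadherins, had too few reads to be tested, and none had a group mean over 0.755 CPM. They were CLDN5, CLDN6, CLDN8, CLDN11, CLDN14, CLDN17, CLDN19, CLDN22, CLDN24, CLDN25 and CLDN34, and CDH7, CDH8, CDH9, CDH10, CDH13, CDH15, CDH18, CDH19, CDH20, CDH22 and CDH26. CLDN17 and CLDN22 had no read in any library. CLDN6, a claudin of the embryo, lies 206 bases from CLDN9 on chromosome 16 and was among those not tested.

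The partners of claudins at the tight junction were counted from a list of 24 genes, all of them tested. In RBE with anlotinib 0 rose and 3 fell in edgeR (1 and 3 in DESeq2, and 4 on each side at an unadjusted p below 0.05), and in HCCC9810 5 rose and 9 fell. The share of all genes past the threshold was 17.7% in RBE with anlotinib, 23.9% in HCCC9810 and 64.1% between untreated lines. These shares are for edgeR's adjusted p, and none was computed at the unadjusted cutoff. CGNL1, which ties the junction to actin and microtubules, fell in both lines. It averaged 107 ± 4.7 CPM in RBE anlotinib against 207 ± 16.6 CPM in RBE control (−0.95 ± 0.10), and 20.1 ± 2.2 CPM in HCCC9810 anlotinib against 35.6 ± 0.44 CPM in HCCC9810 control (−0.83 ± 0.11). PARD6A, a polarity protein, fell in RBE (−0.76 ± 0.18) and rose in HCCC9810 (0.77 ± 0.18). MAGI3, a scaffold, fell in RBE (−0.54 ± 0.15). In HCCC9810 LSR, the angulin of 3-cell contacts, rose to 319 ± 33.5 CPM in anlotinib libraries against 204 ± 21.4 CPM in control libraries (0.64 ± 0.13). TJP3, a scaffold under claudins, rose too (0.60 ± 0.17), while the adhesion molecules JAM2 (−1.07 ± 0.15) and JAM3 (−0.75 ± 0.25) fell. Between untreated lines 9 were higher and 11 lower in RBE. MPDZ, a multi-PDZ scaffold, had 18.6 CPM in RBE control against 0.0923 CPM in HCCC9810 control, and JAM2 had 0.101 CPM in RBE control against 22.5 CPM in HCCC9810 control. CRB3, a polarity protein of the apical side, and JAM3 were also higher in RBE, and MARVELD3 and CXADR were lower.

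Of 13 tested genes of the adherens junction, 2 rose and 2 fell in RBE with anlotinib, and 3 rose and 3 fell in HCCC9810. Of all genes, 17.7% passed in RBE, 23.9% in HCCC9810 and 64.1% between untreated lines. NECTIN4, an adhesion molecule of the nectin family, rose in both lines (0.998 ± 0.24 in RBE and 1.91 ± 0.46 in HCCC9810). Its level in HCCC9810 was low, at 1.56, 1.31 and 0.356 CPM in anlotinib libraries. The HCCC9810 control libraries had 0.269, 0.212 and 0.358 CPM, and these groups overlapped. CTNNB1, beta-catenin, fell in RBE to 344 ± 11.7 CPM in anlotinib libraries against 434 ± 14.3 CPM in control libraries (−0.33 ± 0.09). NECTIN1 also fell in RBE (−0.47 ± 0.12). CTNND1, p120-catenin, fell in HCCC9810 to 380.3 ± 28.5 CPM in anlotinib libraries against 561 ± 5.2 CPM in control libraries (−0.56 ± 0.09). JUP, plakoglobin, rose in HCCC9810 (0.56 ± 0.12), as did NECTIN2 (0.43 ± 0.11), while PLEKHA7 fell (−0.64 ± 0.14). LIMA1, an actin-bundling partner of the cadherin complex, rose in RBE (0.89 ± 0.19) and fell in HCCC9810 (−0.81 ± 0.19). Between untreated lines 6 were higher and 4 lower in RBE, among them NECTIN4 (3.70 ± 0.37) on the higher side and LIMA1 (−2.87 ± 0.20) and EPCAM (−1.38 ± 0.12) on the lower side.

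Of 9 tested desmosome genes, 0 passed in RBE with anlotinib in edgeR or DESeq2 (1 on each side at an unadjusted p below 0.05), and 1 rose and 1 fell in HCCC9810, where PKP4, a plakophilin, rose (0.54 ± 0.10). The counts by edgeR's adjusted p stand beside 17.7% of all genes in RBE, 23.9% in HCCC9810 and 64.1% between untreated lines. No share of all genes was computed at the unadjusted cutoff. Between untreated lines 4 were higher and 4 lower in RBE. The desmosomal cadherins DSC2 and DSC3 had 32.3 ± 3.8 and 34.8 ± 4.5 CPM in RBE control, against 0.0475 and 0.0680 CPM in HCCC9810 control. PKP3 (−3.15 ± 0.13), PKP2 (−1.54 ± 0.09) and DSP, desmoplakin (−0.73 ± 0.12), were lower in RBE. Of 10 genes of cadherin shedding and turnover, 0 rose and 2 fell in RBE with anlotinib in edgeR and in DESeq2 (1 and 5 at an unadjusted p below 0.05), and 2 rose and 4 fell in HCCC9810. NCSTN, a gamma-secretase subunit, fell in both lines (−0.43 ± 0.12 in RBE and −0.66 ± 0.12 in HCCC9810). ADAM10, the protease that sheds E- and N-cadherin, fell in HCCC9810 (−0.87 ± 0.28), as did RNF43 (−0.89 ± 0.24). RNF43 shares 73.9% of its exon bases with TSPOAP1-AS1, SUPT4H1 and AC004687.2, whose reads could not be told apart here. Between untreated lines 1 gene, ARF6, was higher and 4 were lower in RBE.

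**Figure D5:**
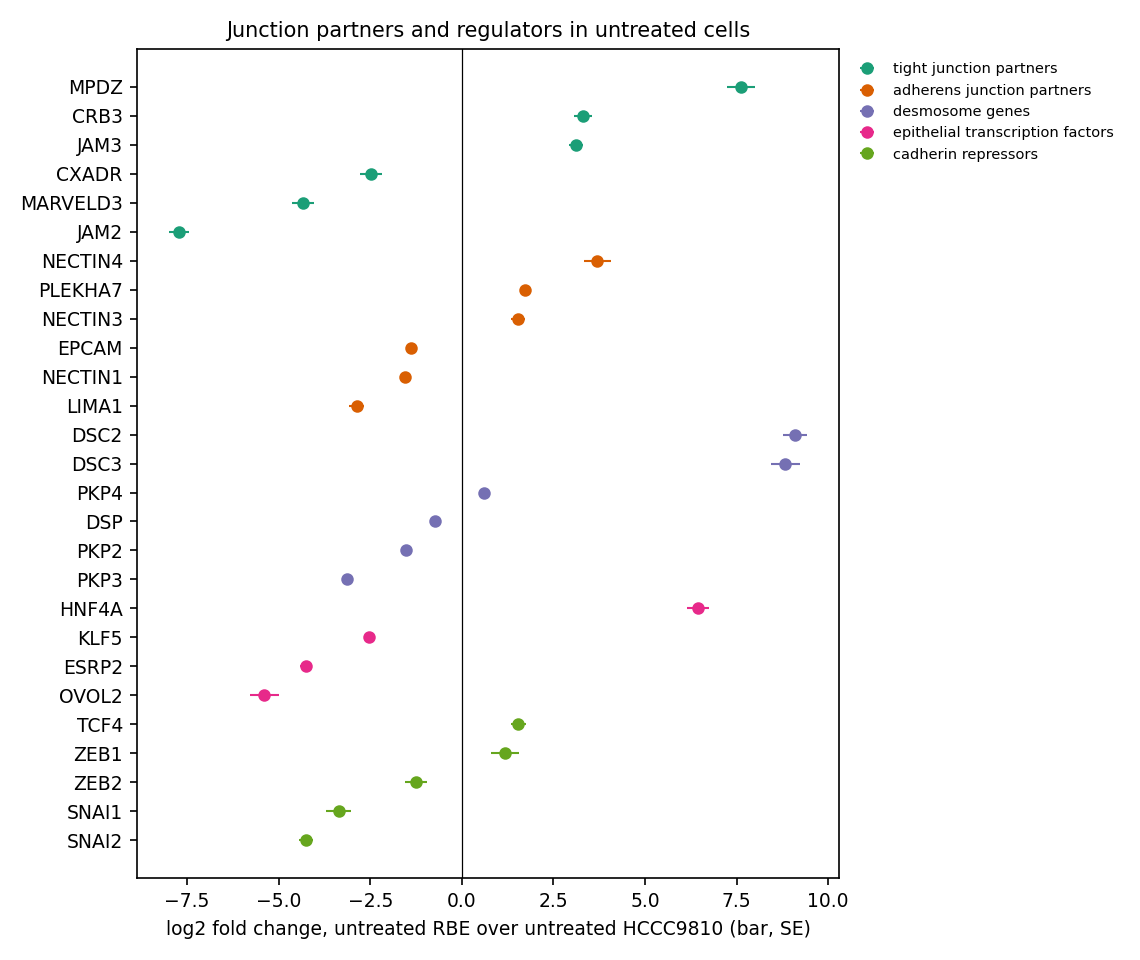
Log2 fold change between the untreated lines (RBE over HCCC9810) with SE for partner and regulator genes, up to 3 in each direction per list. DSC2, DSC3 and MPDZ lay farthest on the RBE side, and JAM2, OVOL2, MARVELD3 and SNAI2 on the HCCC9810 side.

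Known regulators of these genes were counted in the same way. Over all genes, 64.1% passed between untreated lines, 17.7% with anlotinib in RBE and 23.9% with anlotinib in HCCC9810. Of 11 tested epithelial factors, all but ESRP2 transcription factors, 4 were higher and 5 lower in untreated RBE. HNF4A, a factor of liver and gut epithelium, was among the higher ones (6.44 ± 0.30). ESRP2, a splicing factor of epithelial cells (−4.24 ± 0.16), OVOL2 (−5.40 ± 0.39) and KLF5 (−2.54 ± 0.10) were lower in RBE. Of 6 tested cadherin repressors, 2 were higher and 3 lower in RBE. SNAI2, which binds E-boxes and represses CDH1, had 1.38 ± 0.32 CPM in RBE control against 26.1 ± 3.3 CPM in HCCC9810 control. SNAI1 (−3.37 ± 0.35) and ZEB2 (−1.25 ± 0.30) were on the same side, and ZEB1 (1.18 ± 0.38) and TCF4 (1.54 ± 0.20) on the other. With anlotinib, 3 epithelial factors rose and 2 fell in RBE, and 1 rose and 1 fell in HCCC9810. KLF4 rose in both lines, to 33.1 ± 0.67 CPM in RBE anlotinib against 17.3 ± 1.6 CPM in RBE control, and to 44.2 ± 6.2 CPM in HCCC9810 anlotinib against 17.6 ± 1.8 CPM in HCCC9810 control. EHF fell in both (−0.91 ± 0.17 in each). Of the repressors, 2 rose and 1 fell in each line. SNAI2 rose in RBE to 3.45 ± 0.21 CPM in anlotinib libraries against 1.38 ± 0.32 CPM in control libraries, and ZEB2 rose there too (1.05 ± 0.29). SNAI1 (0.79 ± 0.25) and TCF3 (0.68 ± 0.13) rose in HCCC9810, and TCF4 fell in both lines (−0.65 ± 0.19 in RBE and −1.09 ± 0.25 in HCCC9810). All partner values above are log2 fold changes with SE and passed edgeR's test at an adjusted p below 0.05. Apart from DESeq2 counts per list, partner and regulator calls were not followed through the alternative fits, the GC correction or fits with libraries left out. Fold changes of all genes in HCCC9810 followed GC content (rho 0.35), and the part of this in the partner values was not tested.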

How the data were processed

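The data were RNA-seq libraries of total RNA, read in pairs. Per the file headers and labels, the authors deposited raw counts per gene and RPKM for the same 12 libraries. RPKM equalled the count over gene length and column total, to 0.039%. HISAT2 and GRCh38 appear in the submitters' processing notes. The sources used here give no versions, counting program, annotation, strand setting or treatment of reads that match several genes. Members and lists were chosen with earlier results of these data known.

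Counts were fitted with edgeR 4.0.16 in R 4.3.3: expression filter on the 4 groups (18035 of 58216 genes kept), TMM scaling, 1 quasi-likelihood model of 4 group means over 12 libraries, robust spread, two-sided tests, Benjamini-Hochberg adjustment over all genes tested and a threshold of 0.05. CPM are counts per 1000000 after TMM scaling. The difference of effects is RBE minus HCCC9810. Members past the threshold in at least 1 comparison, with a group mean of at least 1 CPM, are given by library; from each partner list up to 3 genes per direction are named; 2 regulator genes and 1 of the 6 promoter motifs searched are not reported here. The fit code was run on simulated counts with known fold changes, for the anlotinib effects and their difference but not for the untreated lines. The simulated counts held no other difference between the lines and no GC-related shift between libraries. They check the code and not its fit to these data. Gene positions and shared exon bases came from GENCODE 29, and promoters from RefSeq. Replicate pairs differed by more than sampling noise (chi-square per degree of freedom 3.52 to 46.3). Alternatives were DESeq2 1.42.0, limma 3.58.1 on log2(RPKM + 1) or log2(RPKM + 0.1), other scalings, filters and libraries left out, a fit of only the 6 libraries compared, and a correction for GC content and length. In bulk RNA a change in cell number of one kind and in RNA per cell cannot be told apart. SE values were derived from edgeR's test statistic and the fold change before its prior count, and include the spread between replicates. Printed fold changes carry the prior count, so at few reads value and SE rest on different estimates. SD values are over the 3 libraries of a group. The floor of 3 reads puts no error on the reads of the other group.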

Additional observations from a re-analysis of the deposited data

Results flagged for a closer look

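The effect of anlotinib differed between the lines for 5 members by edgeR's test of the difference itself. The log2 differences, RBE minus HCCC9810, were 0.64 ± 0.14 for CLDN1 (edgeR adjusted p = 0.0077), 2.48 ± 0.56 for CLDN7 (0.0081), 2.05 ± 0.46 for CDH23 (0.0091) and 2.50 ± 0.71 for CDH5 (0.026). CLDN1 and CDH23 rose in RBE, where all 3 anlotinib libraries lay above all 3 controls, and overlapped with control in HCCC9810. CLDN7 and CDH5 fell in HCCC9810, where all 3 anlotinib libraries lay below all 3 controls, from at most 37 reads in a library. The CDH5 call ended without HCCC9810 control library 9 (0.062), RBE anlotinib library 5 (0.063) or RBE control library 3 (0.077). The CLDN7 and CDH23 calls were each lost in 1 of 10 other settings. The CLDN1 call ended after the GC and length correction (0.051), and CLDN1 has a GC content of 41.8%. For CLDN10 the fitted difference was 4.34 (edgeR adjusted p = 0.045). This call was lost in 10 of 12 fits with 1 library left out and in 4 of 10 other settings, DESeq2 among them (0.082), and its sign turned in 2 more; the highest adjusted p was 0.76. This number depends on the prior count, because the treated HCCC9810 libraries held 0 reads, and it is no bound.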

How the results depend on the processing

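No paired analysis was possible because the groups compared share no replicate numbers in the labels. Of 34 member results past the threshold, 22 stayed past it in the same direction in every alternative run. Over 777 alternatives of these results 737 kept call and direction, 38 lost the call and 2 reversed: the CLDN10 difference of effects was −0.26 with limma on log2(RPKM + 1), with or without the filter. That scale understates low genes, and on it without a filter CDH6 lost its call in both lines. Of 635 alternatives of 28 named results below the threshold, 69 passed it and 12 reversed. The CLDN4 difference of effects became 0.0347 (library totals), 0.016 (limma on log2(RPKM + 1), with or without the filter), 0.0207 (limma on log2(RPKM + 0.1)) and 0.026 (without HCCC9810 anlotinib library 12). The CDH6 difference was −0.0072 on log2(RPKM + 1), with or without the filter. The CLDN1 effect in HCCC9810 was 0.12 after the GC and length correction. The CDH17 effect in RBE lay between −0.14 and 0.22, and was −0.0571 without RBE library 6 and HCCC9810 library 7.

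Members called in HCCC9810 were 11, against 7, with no low-count filter and also without libraries 6 and 7. In RBE they were 11, against 6, with limma on log2(RPKM + 1), and 10 without libraries 6 and 7 or after the GC correction. Members differing in effect were 8, against 5, without libraries 6 and 7, and 3 without HCCC9810 control 9, RBE anlotinib 5 or RBE control 3 (leave-one-out range 3 to 7). Genes called after the GC correction were 4987 in RBE, against 3189, and 4746 for the difference, against 2990, which was 6355 without libraries 6 and 7. With 1 library left out, genes called ranged from 2503 to 5069 in HCCC9810, from 1951 to 3814 in RBE and from 1567 to 4910 for the difference. The lowest came without HCCC9810 control 9, RBE control 1 and RBE anlotinib 5, and all 3 highest without RBE anlotinib 6. The cause was not tested. Library totals moved the median of all genes by 0.13 (log2) in the difference of effects.

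Shares of CPM in place of RPKM, which do not divide by length, were as follows. CLDN1 took 19.1% in HCCC9810 anlotinib and 20.5% in its control. CLDN2 took 26.2% in RBE anlotinib, 47.8% in its control and 28.97% in HCCC9810 control. CLDN4 took 26.04% in RBE anlotinib, 19.1% in its control, 58.97% in HCCC9810 anlotinib and 42.5% in its control. CDH1 took 15.02% in RBE anlotinib, and 15.6% of the 5-gene sum in RBE control. CDH2 took 46.01%, 39.6%, 46.5% and 46.5% in RBE anlotinib, RBE control, HCCC9810 anlotinib and HCCC9810 control. In the same order CDH6 took 26.4%, 34.8%, 1.37% and 2.71%, and CDH24 took 6.14%, 5.97%, 9.76% and 7.69%. CDH11 took 0.0104% in RBE control, 40.9% in HCCC9810 anlotinib and 41.6% in its control. Members at a few reads a library, such as CLDN7, CLDN10 and CDH5 in HCCC9810, are limited by depth.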
